A study of Mus musculus with 18 samples.

Results

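The levels of 10 genes of the Wnt signalling pathway were followed in mouse kidney tubule cells: the ligand genes Wnt4, Wnt7b, Wnt9a and Wnt11, the secreted regulators Notum, Sfrp1 and Dkk3, and the genes Axin2, Lef1 and Rnf43, which are known as targets of the pathway and also act within it. They were chosen by name and found through their mouse Ensembl identifiers, as 10 of the 55487 genes in the deposited count table. The cells, called im-TEC in the labels, are conditionally immortalized tubular epithelial cells that carry a temperature-sensitive SV40 large T antigen. They were grown without interferon-γ and at the restrictive temperature before seeding, so that large T activity would fall. The 6 groups, each of 3 libraries, were treated for 48 h: TGFβ with SAM (10 ng/mL TGFβ and 0.5 mM S-adenosyl methionine), SAM alone (0.5 mM), TGFβ with NAM (10 ng/mL TGFβ and 1 mM nicotinamide), NAM alone (1 mM), TGFβ alone (10 ng/mL) and control. They are written below as TGFβ+SAM, SAM, TGFβ+NAM, NAM, TGFβ and control. TGFβ is a cytokine used to drive fibrotic changes in tubule cells, SAM is the methyl donor of most cellular methyltransferases, and NAM is a form of vitamin B3 and a precursor of NAD. RNA was measured with QuantSeq, a method that sequences each polyadenylated transcript near its 3′ end. All groups share the 1 immortalized line, and the labels do not say whether the 3 libraries of a group came from separate cultures, so p-values measure the spread between these libraries, which may be technical.

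Wnt proteins are lipid-modified ligands that bind Frizzled receptors and the co-receptors Lrp5 and Lrp6. In the canonical branch, binding stops the destruction complex, which holds Axin, from breaking down β-catenin, and β-catenin then acts with factors of the TCF and LEF family on target genes, several of which code for brakes on the pathway. In the kidney, Wnt signalling builds the nephron in the embryo, is low in the healthy adult tubule, and is known to return after injury and in fibrosis.

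The libraries held between 4171170 and 7717626 reads in genes. Values are CPM, the reads of a gene relative to all reads in genes of its library, with trimmed-mean scaling between libraries, and are compared between groups for 1 gene at a time, not between genes. The tubule label was checked against 14 tubule markers. Pax8, a nephron transcription factor, ranged from 165 to 260.0 CPM over the 18 libraries, and Lrp2, the endocytic receptor megalin of the proximal tubule, from 57.8 to 112 CPM. Among the markers at or near 0, Epcam had no read, and Slc34a1, Cdh1 and Cubn had 6, 19 and 62 reads in all. The summed level of the tubule markers was lower with TGFβ: 928 to 1035 CPM in TGFβ+SAM libraries and 3632 to 3787 in SAM libraries, 917 to 978 in TGFβ+NAM and 3115 to 3437 in NAM, and 932 to 1049 in TGFβ and 3016 to 3119 in control. The 6 fibroblast markers summed to 37.8 to 50.5 CPM in TGFβ+SAM and 1.21 to 2.03 in SAM, 76.4 to 102 in TGFβ+NAM and 5.37 to 7.11 in NAM, and 109 to 114 in TGFβ and 3.29 to 7.09 in control. Nearly all of that sum was Col1a1, while Lum and Thy1 had no read in any library. Both sums moved with each TGFβ effect below. By the ranges above, the tubule sum was also higher in SAM than in control, and the fibroblast sum was lower in SAM than in control. The fibroblast sum was lower than in TGFβ in both TGFβ+SAM and TGFβ+NAM. The part of both sums in the TGFβ, SAM and NAM results was not tested. In bulk RNA, fewer cells of a type and less RNA per cell cannot be told apart. The library numbers in the labels fall into 1 block for the 12 libraries without SAM and another for the 6 with it, so the block and SAM cannot be told apart. For SAM replicates 2 and 3 the titles say SAM but the tags for treatment say DIM. and LUN., and the SAM results that this changes are therefore also given without them. That leaves SAM replicate 1 as the only SAM library, so the spread then comes from the other groups and a lost call can follow from the single library. Results were also repeated without TGFβ+NAM replicate 1 and NAM replicate 3, which an earlier look at these data had found unlike their groups.

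Of the 10 genes, 8 passed the low-count filter, which asked for 1.58 CPM in at least 3 libraries. Wnt11, a ligand of the ureteric bud tips, and Sfrp1, a secreted decoy that binds Wnt ligands, had no read in any of the 18 libraries and were too low to judge. A count of 0 allows at most 3 reads over the 18 libraries, a level of up to 0.0266 CPM. The pseudogene Gm8398 overlaps Wnt11 near its 3′ end on the opposite strand and also had 0 reads. The strand setting of the counting is not given, so reads there could have been left out as ambiguous. For Wnt11 the bound therefore covers counted reads only. Rnf43, with 94 reads in all, and Lef1, with 148, lay near the limit of what could be judged. Notum passed the filter through libraries without TGFβ only, namely 3 SAM, 3 NAM and 2 control libraries, and Lef1 mainly through the 3 TGFβ+SAM libraries. The filter thus kept these genes because of the groups in which they were high.

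TGFβ moved 6 of the 8 genes, alone and on top of either supplement. Wnt9a, Wnt7b, Dkk3 and Axin2 were higher with TGFβ, and Wnt4 and Notum were lower, in each of the 3 comparisons that set TGFβ against its absence (edgeR quasi-likelihood F test, Benjamini-Hochberg adjusted p under 0.05). With SAM in both arms the count was 4 higher and 2 lower, beside 28.4% of all 13469 genes tested that were called in that comparison, 14.2% higher and 14.2% lower. With NAM in both arms it was again 4 higher and 2 lower, beside 21.9% of all genes, 10.9% higher and 11% lower. Without a supplement it was also 4 higher and 2 lower, beside 19.4% of all genes, 9.7% higher and 9.74% lower. Notum passed the filter only through libraries without TGFβ, and the 10 genes were named with results of these data known. The counts therefore describe these genes and no more. Lef1 and Rnf43 were not called in any comparison.

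**Figure D1:**
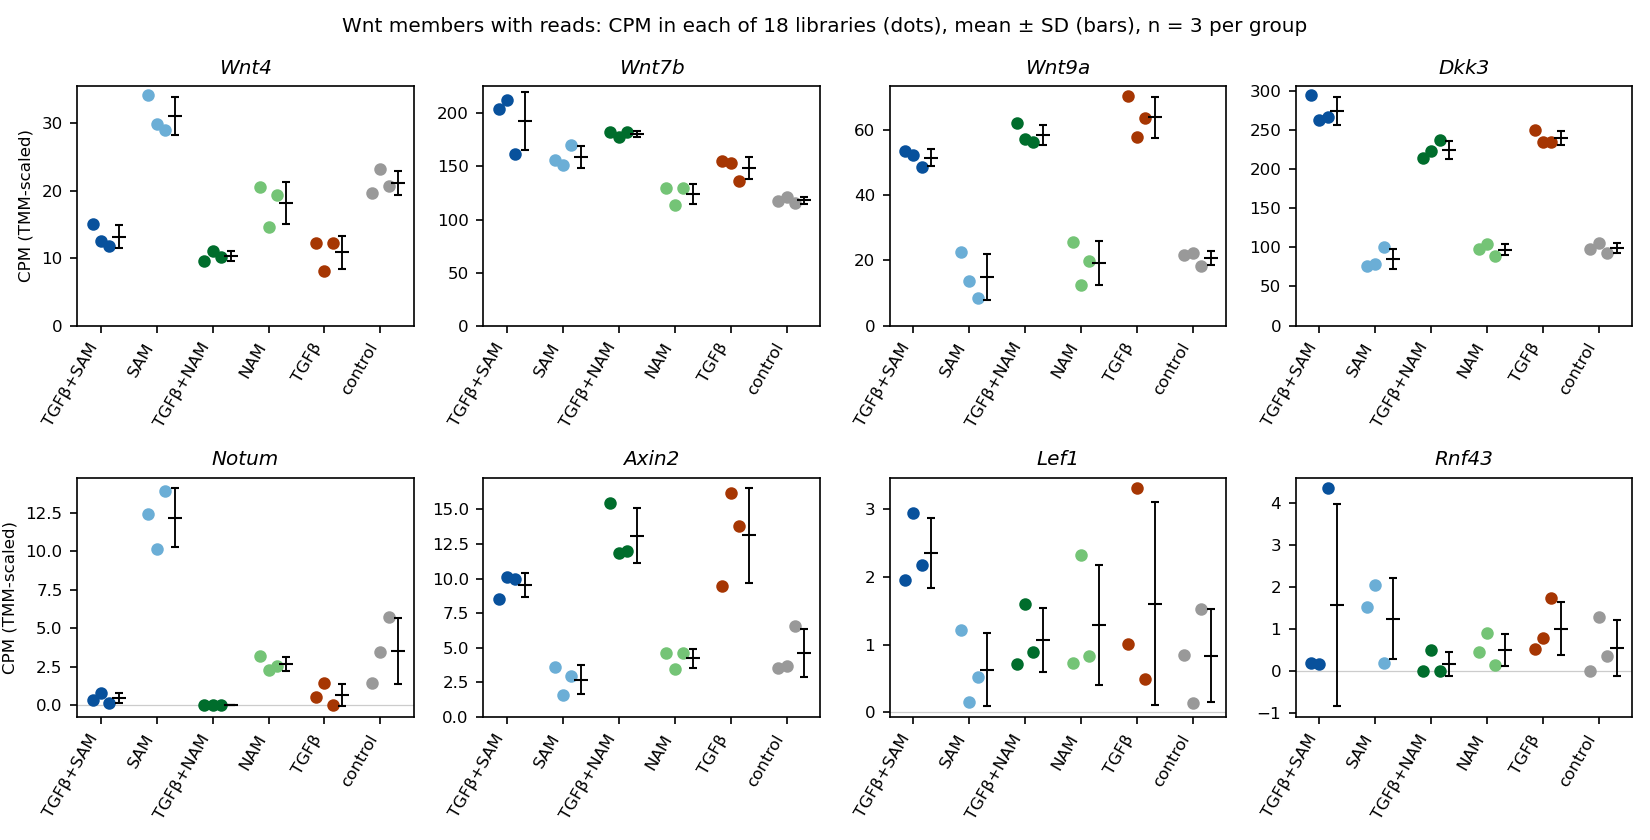
CPM of the 8 genes with reads in each of the 18 libraries (dots), with the group mean and SD beside them (bars, n = 3). The vertical axes are linear and differ between panels. In the Wnt9a, Dkk3 and Axin2 panels each TGFβ group lies above its partner without TGFβ, and in the Wnt4 panel each lies below it. The 3 SAM libraries have the highest Notum values, at 10.2 to 14.0 CPM.

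Wnt9a, a ligand known from joint formation and reported in injured kidney tubules, had the largest rise with TGFβ among the 3 measured ligand genes followed here. It lies on the plus strand at chr11:59306928-59333552 (positions here and below are from GRCm38, GENCODE M21). Its level was 53.5, 52.2 and 48.6 CPM in the TGFβ+SAM libraries, against 22.6, 13.6 and 8.45 CPM in the SAM libraries. It was 62.1, 57.0 and 56.3 CPM in TGFβ+NAM libraries, against 25.5, 12.3 and 19.7 CPM in NAM libraries. It was 70.3, 57.7 and 63.6 CPM in TGFβ libraries, against 21.6, 22.2 and 18.2 CPM in control libraries. Every library with TGFβ was above every library without it, and the SAM libraries were the most spread. The log2 fold change was 1.77 ± 0.21 (SE, edgeR adjusted p = 7.02e-09) for TGFβ+SAM against SAM, 1.61 ± 0.20 (adjusted p = 3.91e-08) for TGFβ+NAM against NAM and 1.62 ± 0.20 (adjusted p = 3.96e-08) for TGFβ against control. With SAM replicate 1 as the only SAM library, the rise for TGFβ+SAM against SAM was 1.19 and was called (adjusted p = 0.000574). Among the TGFβ groups, the 3 TGFβ+SAM libraries all lay below the TGFβ libraries, but the difference of -0.31 ± 0.19 was not called (edgeR adjusted p = 0.382).

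Wnt4, the ligand that turns nephron mesenchyme into epithelium in the embryo, went the other way. It lies on the plus strand at chr4:137277489-137299726. Its level was 15.1, 12.6 and 11.8 CPM in TGFβ+SAM libraries, against 34.2, 29.9 and 29.0 CPM in SAM libraries. It was 9.57, 11.1 and 10.2 CPM in TGFβ+NAM libraries, against 20.5, 14.6 and 19.4 CPM in NAM libraries. It was 12.3, 8.01 and 12.3 CPM in TGFβ libraries, against 19.6, 23.2 and 20.6 CPM in control libraries. The groups of each pair did not overlap. Wnt4 fell by 1.24 ± 0.21 on the log2 scale for TGFβ+SAM against SAM (edgeR adjusted p = 6.72e-06), by 0.82 ± 0.21 for TGFβ+NAM against NAM (adjusted p = 0.00387) and by 0.97 ± 0.21 for TGFβ against control (adjusted p = 0.000685). Without the TGFβ+NAM and NAM libraries found unlike their groups, the fall of 0.72 for TGFβ+NAM against NAM was no longer called (adjusted p = 0.0501).

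Wnt7b, a ligand of the collecting duct that shapes the renal medulla, lies on the minus strand at chr15:85535437-85582473 and changed least of the called genes. Its level was 204, 213 and 161 CPM in TGFβ+SAM libraries, against 156, 151 and 171 CPM in SAM libraries, and these groups overlapped. It was 182, 178 and 182 CPM in TGFβ+NAM libraries, against 130, 113 and 130 CPM in NAM libraries. It was 155, 154 and 136 CPM in TGFβ libraries, against 117, 122 and 115 CPM in control libraries. The NAM pair and the pair without a supplement did not overlap. The log2 rise was 0.28 ± 0.10 for TGFβ+SAM against SAM (edgeR adjusted p = 0.0289), 0.54 ± 0.10 for TGFβ+NAM against NAM (adjusted p = 4.2e-05) and 0.33 ± 0.10 for TGFβ against control (adjusted p = 0.0136). The first was not called without SAM replicate 1 (adjusted p = 0.0799), SAM replicate 2 (0.117), TGFβ+SAM replicate 1 (0.123) or TGFβ+SAM replicate 2 (0.183), nor without both SAM libraries of conflicting tags (0.159), with rises of 0.20 to 0.31 in these fits. The last was not called without control replicate 3 (a rise of 0.31, adjusted p = 0.0632), TGFβ replicate 1 (0.30, adjusted p = 0.0634) or TGFβ replicate 2 (0.30, adjusted p = 0.0581).

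Notum codes for a secreted esterase that strips the lipid from Wnt proteins and so silences them, and it is itself a target of the canonical branch. Its reads were few, so counts are given. The TGFβ+SAM libraries had 2, 5 and 1 reads, against 82, 65 and 81 reads in the SAM libraries. The TGFβ+NAM libraries had 0 reads each, against 22, 18 and 18 reads in the NAM libraries. The TGFβ libraries had 3, 9 and 0 reads, against 10, 24 and 34 reads in the control libraries. The groups of the SAM and NAM pairs lay far apart, whereas TGFβ replicate 2, at 1.41 CPM, met control replicate 1, also at 1.41 CPM. Notum fell by 4.73 ± 0.70 on the log2 scale for TGFβ+SAM against SAM, 26.5-fold (edgeR adjusted p = 1.03e-06). With the floor of 3 reads over the group, its level in TGFβ+NAM was at least 15.4-fold below that observed in NAM (edgeR adjusted p = 3.7e-05). The counting error of the NAM reads is not in that value. It fell by 2.28 ± 0.68 for TGFβ against control (edgeR adjusted p = 0.0133), a call that was lost without control replicate 3 (a change of -1.76, adjusted p = 0.114), TGFβ replicate 1 (0.0622) or TGFβ replicate 3 (0.0705). Notum lies on the minus strand at chr11:120653788-120661175, where the antisense gene Myadml2os overlaps its 3′ end. That gene had 0 reads in the table. The strand setting of the counting is not given, so reads in the overlap could have been left out as ambiguous.

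Dkk3, a secreted member of the Dickkopf family that stressed tubule cells are known to release, had the smallest adjusted p of the 8 genes in each of these 3 comparisons. It lies on the minus strand at chr7:112116017-112159057. Its level was 295, 263 and 266 CPM in TGFβ+SAM libraries, against 76.7, 79.2 and 99.8 CPM in SAM libraries. It was 214, 222 and 236 CPM in TGFβ+NAM libraries, against 98.4, 104 and 89.1 CPM in NAM libraries. It was 250.0, 234 and 235 CPM in TGFβ libraries, against 98.2, 106 and 93.2 CPM in control libraries. Every library with TGFβ was above every library without it. The log2 rise was 1.69 ± 0.10 for TGFβ+SAM against SAM (edgeR adjusted p = 2.12e-17), 1.21 ± 0.10 for TGFβ+NAM against NAM (adjusted p = 4.88e-13) and 1.27 ± 0.10 for TGFβ against control (adjusted p = 1.4e-13).

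Axin2 codes for a scaffold of the β-catenin destruction complex and is the most widely used target gene of the canonical branch. It lies on the plus strand at chr11:108920349-108950783. Its level was 8.50, 10.1 and 9.93 CPM in TGFβ+SAM libraries, against 3.64, 1.56 and 2.93 CPM in SAM libraries. It was 15.4, 11.9 and 12.02 CPM in TGFβ+NAM libraries, against 4.64, 3.47 and 4.60 CPM in NAM libraries. It was 9.44, 16.2 and 13.8 CPM in TGFβ libraries, against 3.52, 3.72 and 6.59 CPM in control libraries. All 9 libraries with TGFβ were above all 9 without it. The log2 rise was 1.80 ± 0.35 for TGFβ+SAM against SAM (edgeR adjusted p = 9.07e-05), 1.63 ± 0.33 for TGFβ+NAM against NAM (adjusted p = 0.000189) and 1.52 ± 0.33 for TGFβ against control (adjusted p = 0.000541). With SAM replicate 1 as the only SAM library, the rise for TGFβ+SAM against SAM was 1.38 (adjusted p = 0.0433). Axin2 and Notum, both known as target genes, thus changed in opposite directions with TGFβ in these cells.

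Lef1 (plus strand, chr3:131110471-131224356) codes for a DNA-binding partner of β-catenin. Its level was 1.95, 2.94 and 2.17 CPM in TGFβ+SAM libraries, against 1.21, 0.156 and 0.517 CPM in SAM libraries. In the other groups the means were 1.07 ± 0.471 CPM in TGFβ+NAM and 1.29 ± 0.886 in NAM, and 1.60 ± 1.49 in TGFβ and 0.836 ± 0.689 in control (SD, n = 3 each). The SAM pair did not overlap and the other pairs did. Its log2 difference was 1.86 ± 0.88 for TGFβ+SAM against SAM (edgeR adjusted p = 0.113), -0.27 ± 0.85 for TGFβ+NAM against NAM (adjusted p = 0.873) and 1.00 ± 0.86 for TGFβ against control (adjusted p = 0.493). Rnf43 (plus strand, chr11:87662722-87735539) codes for a ubiquitin ligase that removes Frizzled receptors from the cell surface. It had 1, 1 and 28 reads in TGFβ+SAM libraries and 10, 13 and 1 in SAM libraries, 0, 3 and 0 in TGFβ+NAM and 3, 7 and 1 in NAM, and 3, 5 and 7 in TGFβ and 0, 9 and 2 in control. Nearly all Rnf43 reads of the TGFβ+SAM group came from replicate 3. The edgeR adjusted p was 0.853, 0.541 and 0.723 in the SAM, NAM and unsupplemented pairs, so no difference was detectable at this depth.

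Promoter sequence was at hand for 6 of the 10 genes (Wnt4, Wnt9a, Wnt11, Axin2, Lef1 and Rnf43), as 11 windows of 300 bases around annotated starts (RefSeq, GRCm38.p6). Both strands were searched for the TCF/LEF motif (CTTTG followed by a pair of bases that are each A or T), which 16.88% of all 32851 windows hold, and for the palindromic SMAD motif GTCTAGAC, held by 0.2131%. The TCF/LEF motif was found in 2 of the 11 windows, 1 of Wnt11 and 1 of Lef1, and GTCTAGAC in 0. The shorter SMAD-box motif CAGAC, a search added after the values were seen, was in 8 of the 11 windows, those of Wnt9a, Axin2 and Rnf43 and some of Wnt11 and Lef1, beside 49.59% of all windows. Lef1 windows 1 and 2 overlap and hold the same CAGAC match, which is counted for both. A pair of stretches is shown, on the plus strand with the match in capitals, since Axin2 rose in all 3 comparisons and Lef1 was the gene with reads that held the TCF/LEF motif. The Axin2 match is CAGAC, 117 bases before the start (chr11:108920207-108920261), and the Lef1 match is the reverse complement of CTTTGTA, 147 bases before an internal start (chr3:131156122-131156178).
Axin2: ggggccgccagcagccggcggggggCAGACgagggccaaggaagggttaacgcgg
Lef1: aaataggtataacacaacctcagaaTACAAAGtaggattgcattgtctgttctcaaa
Such a match is a description of the letters and not a bound site.

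**Figure D2:**
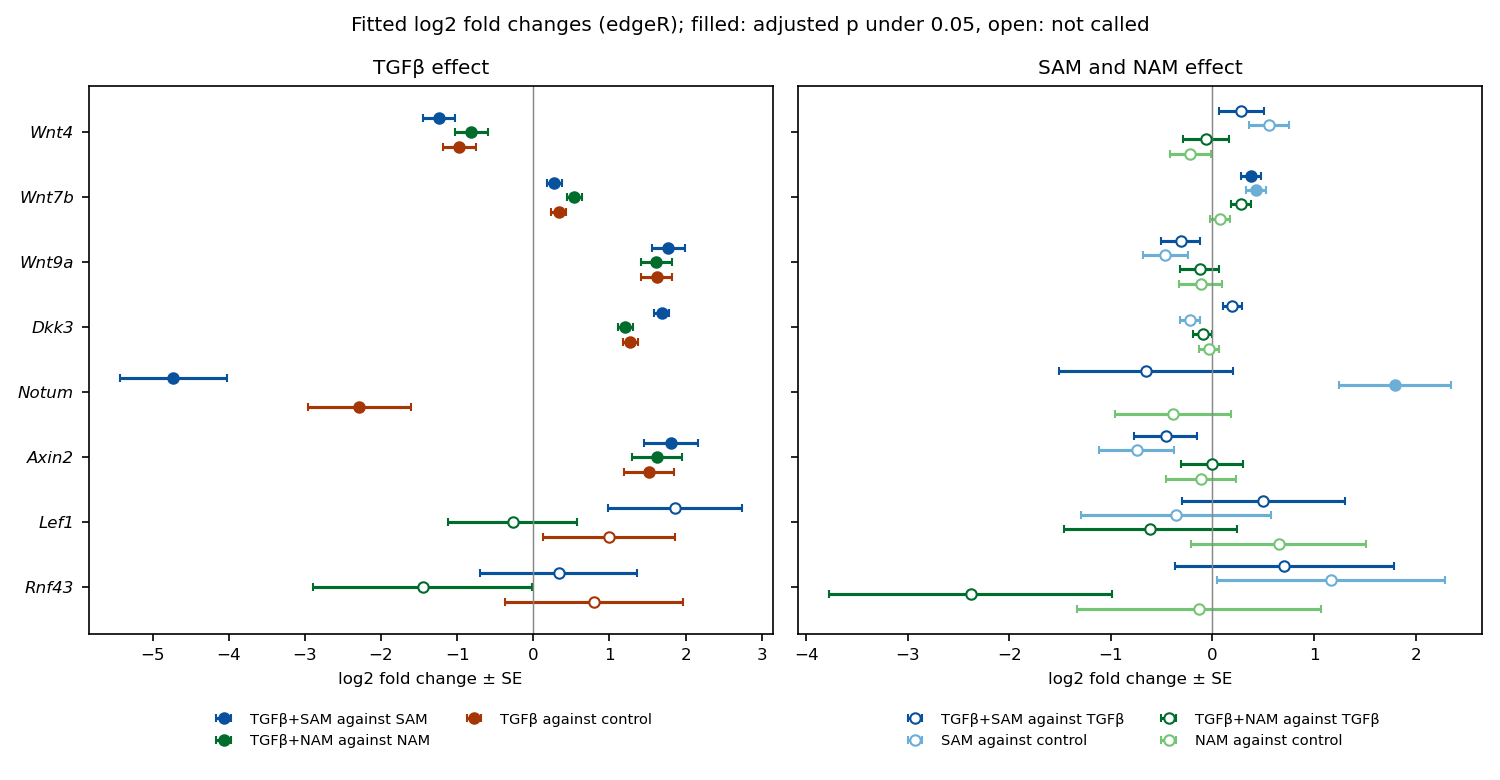
Fitted log2 fold changes (edgeR, horizontal axis) of the 8 tested genes, with SE bars. The left panel shows TGFβ against its absence within each supplement, and the right panel shows each supplement against its absence. Filled points had an adjusted p under 0.05. Notum is left out for TGFβ+NAM, where all libraries had 0 reads. The filled points of the right panel are Wnt7b in both SAM comparisons and Notum in SAM against control.

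In SAM against control 2 of the 8 genes were higher, Notum and Wnt7b, beside 11.8% of all genes called, 5.02% higher and 6.79% lower. The library block cannot be told apart from SAM in this comparison. Notum was at 12.5, 10.2 and 14.0 CPM in SAM libraries, against 1.41, 3.43 and 5.74 CPM in control libraries. The groups did not overlap, and the log2 rise was 1.80 ± 0.55 (edgeR adjusted p = 0.0264). That call was lost without control replicate 1 (adjusted p = 0.153), control replicate 2 (0.0889), SAM replicate 1 (0.0831) or SAM replicate 3 (0.109). Wnt7b rose by 0.43 ± 0.10 in SAM against control, with a mean of 159 ± 10.3 CPM in SAM and 118 ± 3.23 CPM in control (SD, n = 3 each, edgeR adjusted p = 0.00237). With SAM replicate 1 as the only SAM library neither gene was called, while the log2 differences were about as large, at 1.82 for Notum (adjusted p = 0.268) and 0.40 for Wnt7b (adjusted p = 0.124).

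Wnt4 averaged 31.0 ± 2.78 CPM in SAM and 21.1 ± 1.84 CPM in control, and its log2 difference of 0.55 ± 0.20 was not called by edgeR (adjusted p = 0.0611) although the groups did not overlap. DESeq2 called it (adjusted p = 0.0415). Wnt9a, Axin2 and Dkk3 had lower means in SAM than in control, with log2 differences of -0.46 ± 0.22, -0.75 ± 0.37 and -0.22 ± 0.10, all uncalled (edgeR adjusted p = 0.183, 0.204 and 0.166) and with groups that overlapped. Without SAM replicate 1 the Wnt9a difference was -0.91 and was called (adjusted p = 0.00766), whereas with SAM replicate 1 as the only SAM library its direction turned, to 0.12 (adjusted p = 0.868). Without SAM replicate 3 the Dkk3 difference was -0.35 and was called (adjusted p = 0.0378).

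In TGFβ+SAM against TGFβ 1 of the 8 genes was higher, beside 7.32% of all genes called, 3.07% higher and 4.25% lower. Here too the library block cannot be told apart from SAM. Wnt7b rose by 0.38 ± 0.10, with 193 ± 27.6 CPM in TGFβ+SAM and 148 ± 10.3 CPM in TGFβ (SD, n = 3 each, edgeR adjusted p = 0.0118). The call was lost without TGFβ replicate 3 (adjusted p = 0.0893), TGFβ+SAM replicate 1 (0.0770) or TGFβ+SAM replicate 2 (0.114). The Dkk3 libraries did not overlap either, at 274 ± 17.7 CPM in TGFβ+SAM and 240 ± 9.04 CPM in TGFβ, and the log2 difference of 0.20 ± 0.10 was not called (edgeR adjusted p = 0.237). Notum stayed low, at 0.442 ± 0.339 CPM in TGFβ+SAM and 0.640 ± 0.717 CPM in TGFβ, a difference that could not be detected at this depth (edgeR adjusted p = 0.741). Thus Notum was highest in the SAM libraries without TGFβ and at or below 1.41 CPM in all 9 libraries with it.

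NAM moved 0 of the 8 genes in NAM against control, where edgeR called 0.00742% of all genes. No member had an unadjusted p under 0.05 there, beside 722 of all 13469 genes. DESeq2 also called 0 members, beside 7 of all genes. The log2 difference and its approximate 95% interval were -0.03 (-0.225 to 0.165) for Dkk3, 0.07 (-0.120 to 0.269) for Wnt7b and -0.22 (-0.614 to 0.174) for Wnt4. They were -0.12 (-0.533 to 0.299) for Wnt9a, -0.11 (-0.788 to 0.567) for Axin2 and -0.39 (-1.51 to 0.733) for Notum. The widest intervals were those of Lef1, at 0.65 (-1.04 to 2.34), and Rnf43, at -0.13 (-2.48 to 2.22). On top of TGFβ, NAM again moved 0 of 8 by edgeR, beside 0.0817% of all genes, and 0 by DESeq2, beside 34 of all genes. Wnt7b and Notum had an unadjusted p under 0.05 there, beside 932 of all 13469 genes. Wnt7b was at 181 ± 2.77 CPM in TGFβ+NAM and 148 ± 10.3 CPM in TGFβ, without overlap (log2 difference 0.28 ± 0.10, edgeR adjusted p = 0.446). Notum had 0 reads in TGFβ+NAM and 12 in TGFβ, where the libraries had 3, 9 and 0. The groups thus overlapped, and the difference was not called (edgeR adjusted p = 0.327).

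The difference between TGFβ effects was tested directly as an interaction, the effect with a supplement minus the effect without it. For NAM, 0 of the 8 genes were called by edgeR, beside 0% of all genes, and 0 by DESeq2, beside 0 of all genes. There was 1 at an unadjusted p under 0.05 (Notum), beside 462 of all 13469 genes. For SAM, 0 of the 8 were called by edgeR, beside 1.43% of all genes, and 0 by DESeq2, beside 267 of all genes. There were 2 at an unadjusted p under 0.05 (Dkk3 and Notum), beside 1403 of all 13469 genes. The Dkk3 rise was 0.41 ± 0.14 log2 units larger with SAM than without (edgeR adjusted p = 0.16), and it was called without SAM replicate 3 (0.54, adjusted p = 0.0469). The Notum fall differed by -2.45 ± 1.03 (adjusted p = 0.349). For Wnt9a the interval of the SAM interaction ran from -0.419 to 0.722, and for Axin2 from -0.654 to 1.23. The TGFβ comparisons share no library with each other, but the interactions with NAM and with SAM share the TGFβ and control libraries.

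The wider pathway was described with 9 role lists of 120 genes in all, the 10 genes included, of which 69 passed the filter and 28 had no read. For TGFβ against control, 16 of the 69 were higher and 11 lower (edgeR), 39.1% beside 19.4% of all genes, with a median log2 change of 0.092 beside 0.009 over all genes. Without the 10 genes the count was 12 higher and 9 lower of 61. For TGFβ+SAM against SAM it was 19 higher and 14 lower of 69, 47.8% beside 28.4% of all genes. The count fell with SAM replicate 1 as the only SAM library. For TGFβ+NAM against NAM it was 19 higher and 11 lower, 43.5% beside 21.9% of all genes. Some genes stand in more than 1 list.

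Among the 19 ligand genes, 5 had no read, 9 had reads but fell below the filter, and 5 were tested. Of these 5, 3 rose and 1 fell in TGFβ against control, beside 9.7% of all genes higher and 9.74% lower. The 5 include 3 of the members, which were chosen with results of these data known. Beside the members, Wnt7a, a ligand of the female reproductive tract and limb, rose by 1.17 ± 0.21, with 35.9 ± 7.53 CPM in TGFβ and 16.0 ± 2.33 in control (SD, n = 3 each, edgeR adjusted p = 3.49e-05). Wnt5a, the main ligand of the non-canonical branch, was not called (-0.26, adjusted p = 0.385). Porcn, the enzyme that adds the lipid to Wnt proteins, rose by 0.98 ± 0.28 (adjusted p = 0.00979), and Wls, which carries them to the surface, differed by -0.20 (adjusted p = 0.0962). Of the 12 tested receptor genes, 2 rose and 3 fell, 41.7% beside 19.4% of all genes. They were led by the Frizzled receptors Fzd2 (1.07 ± 0.12, adjusted p = 1.18e-09), Fzd4 (-1.72 ± 0.25, adjusted p = 1.07e-06) and Fzd6 (0.65 ± 0.13, adjusted p = 0.000257). In the R-spondin group 0 of 3 were called by edgeR, beside 19.4% of all genes. Among the 3 were the receptor Lgr4 (0.46, adjusted p = 0.101) and Znrf3, a ligase related to Rnf43 (0.19, adjusted p = 0.597).

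Of the 19 inhibitor genes, 11 had no read and 5 were tested, of which 40% were called in TGFβ against control beside 19.4% of all genes. Dkk3 and Notum were the called ones in TGFβ against control, while Trabd2b, a protease that cleaves Wnt proteins (-0.39, edgeR adjusted p = 0.0582), Kremen1, a receptor of Dickkopf proteins (0.47, adjusted p = 0.284), and Apcdd1, a membrane inhibitor (0.08, adjusted p = 0.903), were not. In the cytoplasmic relay 3 of 16 rose and 1 fell, a share of 25% near the 19.4% of all genes. Beside Axin2 these were the kinase gene Csnk1e (0.85 ± 0.10, adjusted p = 5.6e-09), Tnks, whose product marks Axin for degradation (0.45 ± 0.13, adjusted p = 0.0138), and Dvl1, a relay between Frizzled and Axin (-0.36 ± 0.11, adjusted p = 0.0141). Among 12 nuclear factors 0 rose and 3 fell, again 25% beside 19.4%. They were Tcf7l2, a partner of β-catenin (-0.68 ± 0.09, adjusted p = 1.27e-07), and the co-repressor family genes Tle5 (-0.64 ± 0.09, adjusted p = 2.35e-07) and Tle1 (-0.94 ± 0.19, adjusted p = 0.000249).

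The 14 tested target genes did not move one way: 4 rose and 2 fell in TGFβ against control. That is 42.9% beside 19.4% of all genes, with a median log2 change of 0.138. Ccn4, a matricellular protein also called Wisp1, rose by 2.19 ± 0.09, with 906 ± 29.9 CPM in TGFβ and 198 ± 14.7 in control (SD, n = 3 each, edgeR adjusted p = 7.5e-23). Its relative Ccn5 rose by 1.77 ± 0.11 (adjusted p = 4.19e-16). Ccnd1, which codes for cyclin D1, fell by 2.25 ± 0.10, with 139.8 ± 4.49 CPM in TGFβ and 665 ± 29.98 in control (adjusted p = 5.34e-21). Several of these targets are also known to answer to TGFβ or to growth factors, so the list is not specific to Wnt. Of 7 planar cell polarity genes 3 rose and 1 fell, 57.1% beside 19.4% of all genes. Among those called were Celsr2, an atypical cadherin (1.28 ± 0.12, adjusted p = 1.2e-11), Daam1, a formin (0.59 ± 0.18, adjusted p = 0.0186), and Vangl1, a core membrane protein (-0.38 ± 0.12, adjusted p = 0.0204).

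**Figure D3:**
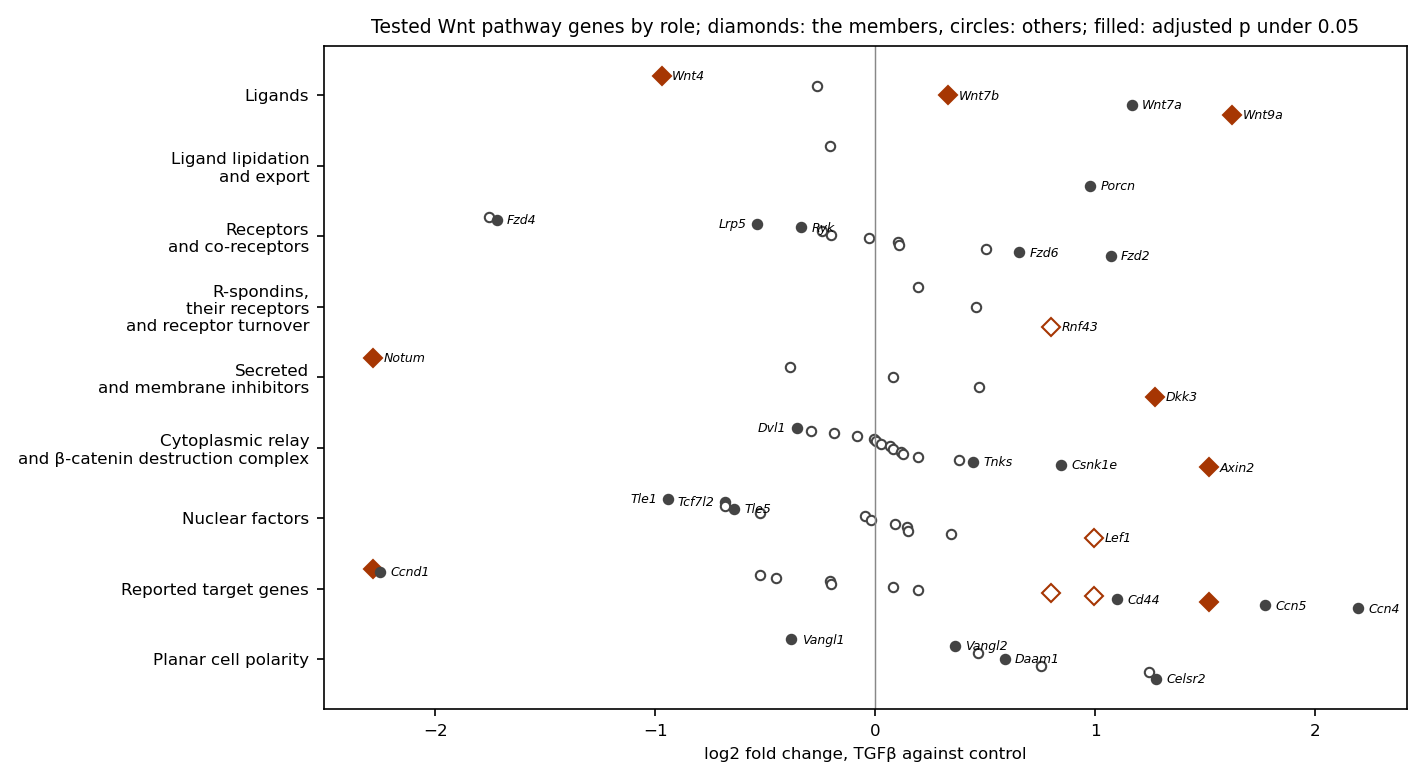
Log2 fold changes for TGFβ against control (horizontal axis) of the 69 tested Wnt pathway genes, set in rows by role. Diamonds are the 8 tested genes of the 10 followed here and circles the others, with genes past an adjusted p of 0.05 filled and named where first listed. Filled points lie on both sides of 0 in the rows for ligands, receptors, inhibitors, relay, targets and polarity genes, and the 3 filled points among nuclear factors lie below 0.

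In SAM against control 7 of the 69 pathway genes were higher and 4 lower (edgeR), 15.9% beside 11.8% of all genes. Without control replicate 2 the count was 7, while calls over all genes went from 1591 to 1066. With SAM replicate 1 as the only SAM library fewer were called, which can follow from the single library. Wnt7a fell by 1.68 ± 0.25, with 4.98 ± 0.719 CPM in SAM and 16.0 ± 2.33 in control (adjusted p = 3.39e-06), while Wnt5a rose by 0.94 ± 0.18, with 58.3 ± 7.20 and 30.5 ± 1.57 CPM in SAM and control (adjusted p = 0.000243). Ccn4 fell by 1.19 ± 0.09, with 86.9 ± 4.16 CPM in SAM and 198 ± 14.7 in control (adjusted p = 3.17e-13). The receptor genes Fzd7 (0.52 ± 0.13, adjusted p = 0.00689) and Lrp5 (0.60 ± 0.17, adjusted p = 0.0126), the kinase gene Gsk3b (0.30 ± 0.09, adjusted p = 0.0247) and Tle5 (0.33 ± 0.09, adjusted p = 0.00711) were higher. The adhesion receptor gene Cd44 (-0.51 ± 0.09, adjusted p = 6.27e-05) and the formin gene Daam2 (-1.34 ± 0.39, adjusted p = 0.0192) were lower. The named genes Porcn, Wls, Znrf3, Lgr4, Apcdd1, Trabd2b, Csnk1a1, Tle1 and Vangl1 were not called, with adjusted p between 0.143 and 0.651.

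In the SAM interaction 2 of the 69 genes were called, 2.9% beside 1.43% of all genes. Both had a larger TGFβ rise when SAM was present. The count was 1 without control replicate 2 and without SAM replicate 1. Calls over all genes went from 193 to 131 and 148 there. Fewer pathway genes were also called with SAM replicate 1 as the only SAM library. Wnt7a had 29.3 ± 2.11 CPM in TGFβ+SAM and 4.98 ± 0.719 in SAM, a log2 rise of 2.56 ± 0.24, beside 1.17 ± 0.21 without a supplement (SD, n = 3 each, interaction 1.39 ± 0.32, edgeR adjusted p = 0.0125). Ccn4 had 905 ± 74.2 CPM in TGFβ+SAM and 86.9 ± 4.16 in SAM, a log2 rise of 3.38 ± 0.09, beside 2.19 ± 0.09 without a supplement (interaction 1.18 ± 0.12, adjusted p = 5.66e-09). SAM alone lowered both genes against control, as given above. In TGFβ+SAM against TGFβ, 6 pathway genes were higher and 1 lower, 10.1% beside 7.32% of all genes. That count of 7 was 2 without TGFβ replicate 1, TGFβ replicate 3 or TGFβ+SAM replicate 1, and 4 without TGFβ replicate 2. Calls over all genes went from 986 to 667, 653, 630 and 774 in the same order. In NAM against control and in TGFβ+NAM against TGFβ, 0 of 69 were called by edgeR, beside 0.00742% and 0.0817% of all genes. At an unadjusted p under 0.05 were 5 and 8 of the 69, beside 722 and 932 of all 13469 genes. DESeq2 called 0 and 2 of the 69, beside 7 and 34 of all genes.

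The profiles of the 5 genes with at least 5 CPM and a call were set beside those of 9754 other genes over the 18 libraries, by the root mean square difference of centred log2 CPM, where a smaller value means a more alike profile. For Wnt9a the nearest genes were Tbc1d1 (0.292), Plekhg4 (0.316) and Timp3 (0.326), and for Axin2 they were Sh3bp2 (0.276), Fn1 (0.316) and Timp3 (0.331). Timp3 codes for an inhibitor of matrix proteases and Fn1 for fibronectin. For Dkk3 they were Pla2g16 (0.142), Actn1 (0.154) and Nuak1 (0.159), for Wnt7b Axl (0.108), Klf7 (0.130) and Lars (0.132), and for Wnt4 Ganc (0.206), Zfp608 (0.207) and Cldn1 (0.208). Actn1 codes for an actin crosslinker and Cldn1 for a tight junction protein. The libraries share treatments, so likeness over them describes the pattern and no more.

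The levels can be read in order across the groups. For Wnt9a and Axin2 the 3 TGFβ groups lay above the 3 others without overlap, with TGFβ and TGFβ+NAM overlapping at the top. TGFβ+SAM lay below both for Wnt9a, whereas for Axin2 it lay below TGFβ+NAM and overlapped TGFβ. For Dkk3 the order was TGFβ+SAM, then TGFβ and TGFβ+NAM, which overlapped, then control, NAM and SAM, of which each overlapped the next. For Wnt4 SAM stood above control, control overlapped NAM, and NAM overlapped TGFβ+SAM at the upper end of the TGFβ groups. For Wnt7b the order was TGFβ+SAM, TGFβ+NAM, SAM, TGFβ, NAM and control, with overlap between TGFβ+SAM and TGFβ+NAM, TGFβ+SAM and SAM, SAM and TGFβ, and NAM and control. For Notum SAM stood above control and NAM, which overlapped, and the TGFβ groups followed, all below NAM, with TGFβ meeting control at 1.41 CPM. For Lef1 and Rnf43 every group overlapped the next in order.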

How the data were processed

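Polyadenylated RNA of 18 im-TEC libraries was read near its 3′ end with the QuantSeq kit, per the labels. The authors deposited 1 table of raw counts, whole reads per gene and library. STAR and HTSeq are named in the submitters' processing notes, while their versions and the strand setting are not given in the sources used here. The notes name GRCh38 while the identifiers are mouse, so the build of the counting is not settled. Symbols (55141 of 55487 identifiers) and positions come from GRCm38 (GENCODE M21). Reads outside genes (22.8% to 28.2% of a library) and ambiguous reads (0.607% to 0.779%), held with others in 5 special rows, were left out.

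Groups were taken from titles. edgeR 4.0.16 in R 4.3.3 was run on counts with TMM scaling and filterByExpr (minimum count 10), 13469 genes, in 1 quasi-likelihood fit of all 18 libraries with each comparison as a contrast. Tests were two-sided, and Benjamini-Hochberg adjustment at 0.05 ran over all genes tested within a comparison. The SE is the log2 change divided by the root of the F statistic, and 95% intervals are normal approximations. With 3 libraries a group the smallest exact permutation p is 0.1, so no such test was run. Floors are 3 reads and cover counting error only, as QuantSeq reads here carry no stated molecular identifiers. A member was called too low to judge if it failed the filter or had fewer than 30 reads in every group.

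In counts simulated for TGFβ against control (12918 genes), 25% of genes changed 1.5-fold and 68% of those changed 2-fold were recovered. The members, role lists and marker lists were chosen with earlier results of these data known. From each role list up to 3 further genes with the smallest p in TGFβ against control and up to 2 in SAM against control were named, called or not. Like profiles were sought among tested genes with a mean of at least 5 CPM, without predicted genes, with a prior count of 2 for log2 CPM, and 3 were named per gene. Alternatives were DESeq2 1.42.0, its size factors used within edgeR, scaling to library totals alone, all genes with a read, the replicate number as a block, each library left out, and the 2 pairs of doubted libraries left out.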

Additional observations from a re-analysis of the deposited data

Results flagged for a closer look

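In 2 genes of the wider pathway the effect of TGFβ differed between cells with and without SAM by the interaction test itself. For Wnt7a the interaction was 1.39 ± 0.32 on the log2 scale (edgeR adjusted p = 0.0125), from a mean of 29.3 CPM in TGFβ+SAM and 4.98 CPM in SAM, and of 35.9 CPM in TGFβ and 16.0 CPM in control. For Ccn4 it was 1.18 ± 0.12 (edgeR adjusted p = 5.66e-09), from a mean of 905 CPM in TGFβ+SAM and 86.9 CPM in SAM, and of 906 CPM in TGFβ and 198 CPM in control. Both interactions rest on the SAM libraries, whose library block cannot be told apart from SAM treatment. All 18 libraries gave 2 pathway genes called in the SAM interaction, beside 1.43% of all genes. With each library left out in turn, that number ranged from 1 to 3, and the number over all genes from 131 to 248. Wnt7a lay nearer the threshold of 0.05 than Ccn4.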

How the results depend on the processing

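Over 25 alternatives the calls of Wnt9a, Axin2 and Dkk3 in all 3 TGFβ comparisons, of Wnt4 for TGFβ against control and TGFβ+SAM against SAM, and of Notum for both supplemented pairs held, and no called value changed sign. The median change of all genes moved by at most 0.0558 under any scaling. Leaving out the SAM libraries of conflicting tags keeps 1 SAM library, assumed to vary like the other groups. Fewer calls can follow from that, and fewer were made in SAM against control and in the SAM interaction. The log2 differences in SAM against control were then 1.82 for Notum and 0.40 for Wnt7b, beside 1.80 and 0.43. For TGFβ+NAM against TGFβ the pathway count of 0 became 2 with DESeq2, 1 without the filter, and 1 without the TGFβ+NAM and NAM libraries found unlike their groups. Calls over all genes went from 11 to 34, 32 and 20 in the same order. With each library left out in turn, members called ranged from 4 to 6 for TGFβ against control, 1 to 2 for SAM against control, 5 to 6 for TGFβ+SAM against SAM, 0 to 1 for TGFβ+SAM against TGFβ, and 0 to 1 for the SAM interaction. Pathway genes ranged from 7 to 11, 0 to 1, 2 to 8 and 1 to 3 for SAM against control, TGFβ+NAM against TGFβ, TGFβ+SAM against TGFβ and the SAM interaction. Calls over all genes in these fits ranged from 1063 to 1795, 3 to 16, 630 to 1153 and 131 to 248 in the same order. They ranged from 2068 to 2804 for TGFβ against control and from 3237 to 4013 for TGFβ+SAM against SAM. The cause of these shifts was not tested. Wnt4 in SAM against control was called with DESeq2 alone, and the single-library calls are given beside the results. With the replicate number as a block, the count of pathway genes called in TGFβ+NAM against TGFβ was 1, beside 11 of all genes. No count of members changed in that fit. Same-numbered libraries of compared groups showed no strong shared deviation, with correlations of -0.0997 to 0.0696. Such correlations cannot settle whether the libraries were handled in pairs. At 4171170 to 7717626 reads per library, Lef1, Rnf43 and Notum under TGFβ rest on a few reads each, and Wnt11 and Sfrp1 could not be judged.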
